A study of Mus musculus with 8 samples.

Results

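Divergent promoter pairs were taken from a table of normalized PRO-seq signal per gene in mouse induced pluripotent stem cells. A pair was formed by genes on opposite strands of the same chromosome whose start sites lay within 1 kb, with the minus-strand start at the lower coordinate, so that transcription runs outward from a shared region. Each gene was used only with its nearest partner. The rule gave 794 pairs, holding 1588 of the 14861 genes in the table (10.7%). No signal value was used to choose them. The start sites of the partners lay a median of 175 bp apart, with quartiles of 97.2 and 343 bp. The shortest distance was 2 bp and the longest 998 bp.

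The cells were a clonal FUCCI2 line, which carries fluorescent reporters of cell cycle phase, grown with LIF and with inhibitors of MEK and GSK3 on a layer of irradiated feeder cells. The results therefore describe 1 clone. Mitotic cells were arrested with nocodazole, which depolymerises microtubules, at 200 ng/ml for 6 h and collected by shake-off. Other dishes were released from that arrest into fresh medium for 1 h or 3 h, and asynchronous cells were left untreated, so the released cells differ from the asynchronous ones by drug exposure as well as by phase. The labels list 2 libraries in each of these 4 groups, and the table holds 1 combined column per group. No difference below has a replicate check, and no p-value is given. The column headed early G1 was taken, from its meaning alone, as the release of 1 h, and that headed late G1 as the release of 3 h.

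PRO-seq detects polymerases at work on the template, strand by strand, so it reads transcription and not stored RNA. Promoters in mammals often recruit polymerase in both directions from a common nucleosome-depleted region. At a divergent pair, both directions lead into annotated genes, and such pairs are known to be rich in CpG islands and in genes of basic cell upkeep.

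The pluripotency markers chosen to check the cells (9 of 10 in the table) summed to 57.0 in mitosis and to 1145 in asynchronous cells, while the 8 fibroblast markers of 15 that the table held summed to 4.38 and 79.3. Fn1, which encodes fibronectin, gave 3.26 and 53.4 of these, and the other 7 summed to 1.12 and 26.0. None of these markers belongs to a divergent pair. Fewer cells of a type and less transcription per cell cannot be told apart in these bulk libraries.

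The region between the start sites could be read for 46 of the 97 pairs singled out by name, from RefSeq promoter windows on GRCm38.p6. The 8 below were chosen because the results return to them. Each runs 5′ to 3′ on the plus strand from the minus-strand start to the plus-strand start, inclusive. Capitals mark exact matches, on either strand, to one of 9 textbook promoter motifs. ETS factors were searched by the letters CCGGAAG, the zinc finger factor YY1 by AAGATGGCG, and nuclear factor Y (NFY) by CCAAT. SP factors were searched by GGGCGG, the cyclic AMP response element (CRE) by TGACGTCA, and the TATA box by TATAAA. The cell cycle motifs were E2F, with the letters TTCCCGC, and the cell cycle homology region (CHR), with TTTGAA. The palindrome bound by NRF1 was the last, and matches may overlap.
Hspd1-Hspe1: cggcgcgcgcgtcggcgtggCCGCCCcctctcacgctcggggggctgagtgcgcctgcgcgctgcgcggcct
Ppat-Paics: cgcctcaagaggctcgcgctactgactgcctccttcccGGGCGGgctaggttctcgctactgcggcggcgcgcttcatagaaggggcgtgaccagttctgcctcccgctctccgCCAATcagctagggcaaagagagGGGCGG
Orc3-Rars2: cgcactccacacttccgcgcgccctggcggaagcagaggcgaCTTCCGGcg
Zfpl1-Cdca5: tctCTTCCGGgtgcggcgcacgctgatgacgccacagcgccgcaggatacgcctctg
Ncapd2-Mrpl51: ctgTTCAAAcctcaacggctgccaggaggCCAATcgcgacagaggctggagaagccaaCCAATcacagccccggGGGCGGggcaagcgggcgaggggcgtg
Lrsam1-Rpl12: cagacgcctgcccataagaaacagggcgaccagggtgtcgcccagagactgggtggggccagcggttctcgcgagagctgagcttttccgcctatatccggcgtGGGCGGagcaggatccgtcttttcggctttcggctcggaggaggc
Oxld1-Ccdc137: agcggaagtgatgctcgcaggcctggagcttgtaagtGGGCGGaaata
Zswim7-Ttc19: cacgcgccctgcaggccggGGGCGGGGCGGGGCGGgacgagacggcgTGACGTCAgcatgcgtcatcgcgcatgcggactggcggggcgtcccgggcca

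The Hspd1 and Hspe1 interval (chr1:55088243-55088314) is 72 bases long, 83.3% of them G or C, and its capitals are an SP match. Ppat and Paics (chr5:76951165-76951307) are separated by 143 bases with 2 SP matches and an NFY match. The intervals of Orc3 and Rars2 (chr4:34614911-34614961) and of Zfpl1 and Cdca5 (chr19:6084927-6084983) each hold 1 ETS match. Ncapd2 and Mrpl51 (chr6:125191701-125191801) share 101 bases with 2 NFY matches, an SP match and a CHR match. The Lrsam1 and Rpl12 interval (chr2:32961592-32961740) holds 1 SP match, as does the 48-base interval of Oxld1 and Ccdc137 (chr11:120458068-120458115). Zswim7 and Ttc19 (chr11:62281375-62281473) are separated by 99 bases, in which 3 SP matches lie next to and over each other and a CRE match follows.

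Promoter windows ran from 250 bases before to 50 after the RefSeq start. They were used where that start lay within 100 bp of the start site in the table. The median GC content was 63.3% over 1047 genes of divergent pairs, against 60.7% over 7575 other genes. The median number of CpG dinucleotides was 25 against 20. The ETS letters were found in 32.0% of the windows of paired genes, in 17.0% of those of other genes and in 18.8% of all windows. The YY1 letters stood in 5.83% against 3.02% (3.36% of all), the CRE letters in 5.64% against 3.27% (3.56% of all) and the NRF1 letters in 3.15% against 2.07% (2.20% of all). NFY was matched in 44.7% against 38.5% (39.2% of all), SP in 71.4% against 64.5% (65.3% of all) and E2F in 11.2% against 8.04% (8.42% of all). TATA was less frequent in paired genes, 4.01% against 7.39% (6.98% of all), and so was CHR, 8.40% against 11.4% (11.1% of all). The windows of close partners share bases, so that 1 site can count for both genes, and the difference in base composition was not taken out of these shares. A match is a description of letters and shows no binding.

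**Figure D1:**
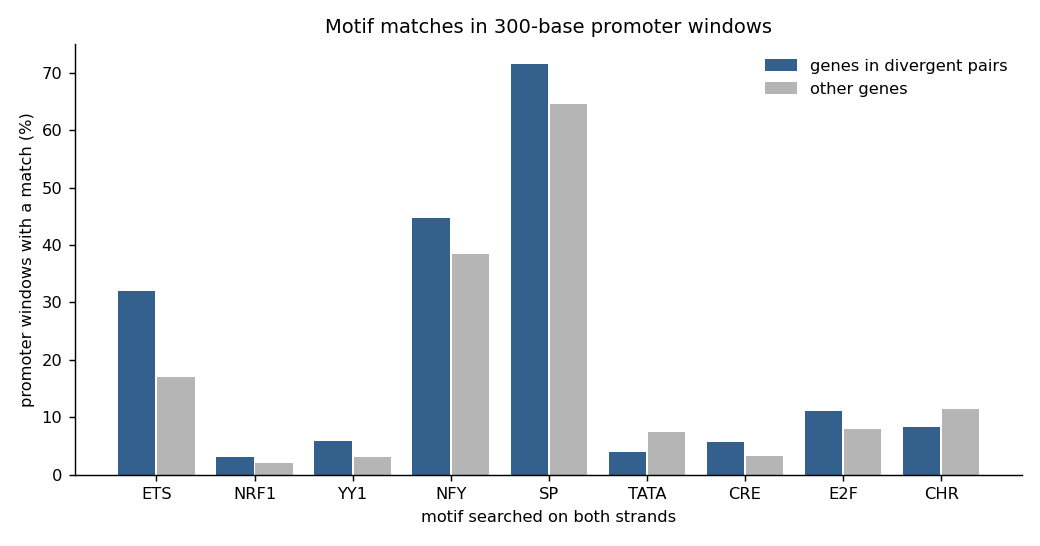
Share of 300-base RefSeq promoter windows (vertical axis, percent) with at least 1 exact match to each motif (horizontal axis), for 1047 genes of divergent pairs (blue) and 7575 other genes (grey). ETS letters stand in 32.0% of the paired genes' windows and 17.0% of the others, and TATA letters in 4.01% and 7.39%.

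The pairs were mostly pairs of protein-coding genes (772 of 794 by RefSeq), and 11 joined a long noncoding RNA to a coding gene. Some functional groups were heavily represented. Of the chaperone genes in the table, 18 of 49 (36.7%) had a divergent partner within 1 kb, as did 26 of 75 mitochondrial ribosomal protein genes (34.7%), 9 of 28 RNA polymerase subunit genes (32.1%), 35 of 117 DNA repair genes (29.9%), 19 of 67 DNA replication genes (28.4%), 26 of 92 oxidative phosphorylation genes (28.3%) and 10 of 37 aminoacyl-tRNA synthetase genes (27.0%). The share over all genes was 10.7%. RNA splicing genes (24 of 108, 22.2%), tubulin and gamma-tubulin complex genes (5 of 23, 21.7%) and the p53 list (8 of 38, 21.1%) lay between. So did proteasome genes (8 of 44, 18.2%) and cytosolic ribosomal protein genes (13 of 81, 16.0%). The p53 list holds target genes and also Trp53 itself and its neighbour Wrap53. Genes of G2 and mitosis stood at 7 of 57 (12.3%), replication-dependent histone genes at 2 of 16 (12.5%) and zinc finger genes at 20 of 349 (5.73%). None of 28 naive pluripotency genes and none of 31 immediate early genes had such a partner.

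The paired genes carried more signal than the others in each column. Their median was 0.644 against 0.471 in mitosis, 16.9 against 11.1 in early G1, 13.2 against 10.6 in late G1 and 12.1 against 9.10 in asynchronous cells. Of the 1588 genes, 1587 had a mean signal of at least 0.5 over the columns, the minimum used for ratios, and 15 were listed at 0 in some column, 11 of them in mitosis. Ratios are given as log2 of (signal + 0.1), which understates the change of low genes, and a change means at least 2-fold.

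In mitosis nearly every paired gene was lower than in asynchronous cells, 1571 of 1575 (99.7%), where 99.1% of all genes were; none was higher (0.0208% of all genes). The median log2 ratio was -3.97 for paired genes and -3.89 for all genes. This comparison depends on how the authors scaled the columns. With the columns set to equal medians, 112 of the 1575 paired genes (7.11%) were higher, where 9.55% of all genes were. Lower were 68 (4.32%), where 7% of all genes were. In the authors' scaling the 4 exceptions, named after their values were seen, were Hspa1a, Cib1, Prtn3 and Gm9949. Hspa1a, the inducible HSP70 chaperone, stood at 0.792 in mitotic cells, then 8.40 in early and 6.05 in late G1, and 0.944 in asynchronous cells. Its mitotic level lay near its low asynchronous level, while its partner Hspa1l had 0.296 in mitotic cells, then 7.14 in early and 14.1 in late G1, and 8.02 in asynchronous cells. Cib1 encodes a calcium and integrin binding protein. It had 36.2 in mitotic cells, then 154 in early and 134 in late G1, and 62.5 in asynchronous cells. Its partner Gdpgp1 had 1.03, 16.6, 15.9 and 17.8 in the same order.

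Among the better expressed pairs, those with both genes at or above the median mean signal of all genes, Hspb2 and Cryab kept the most mitotic signal together. Both encode small heat shock proteins. Hspb2 measured 2.72 in mitotic cells, then 30.4 in early and 17.5 in late G1, and 19 in asynchronous cells, and the lens and muscle chaperone Cryab 1.06, 18.1, 20.9 and 7.78 in the same order. Their log2 ratios of mitotic to asynchronous signal were -2.76 and -2.77. At the other end, Bloc1s3 (-5.13) and Trappc6a (-5.18), which encode subunits of vesicle trafficking complexes, and Csnk2b (-4.94), the regulatory subunit of casein kinase 2, with Gpank1 (-5.07), fell most together. The pair whose partners were most unlike was Slc25a29 and Slc25a47, both mitochondrial carriers. Slc25a29 had 0.928 in mitotic cells, then 34 in early and 11.7 in late G1, and 8.78 in asynchronous cells, and Slc25a47 0.151, 42, 10.8 and 28.2 in the same order, so mitotic signal was 10.6% of the asynchronous level in the first and 0.536% in the second.

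Signal was back 1 h after release. In early G1, 1572 of 1576 paired genes (99.7%) were higher than in mitosis, where 99.3% of all genes were, and 1 was lower (0.00692% of all genes, the 1 such gene in the table). Equal medians gave 76 of the 1576 higher (4.82%), where 4.95% of all genes were, and 114 lower (7.23%), where 13.7% were. The median log2 rise was 4.44 for paired genes and 4.21 for all genes. At or above the median level of all genes, the medians were 4.56 and 4.51. The gene that fell was Ptcd1, which encodes a mitochondrial RNA-binding protein, at 1.47 in mitotic cells, then 0.618 in early and 7.92 in late G1, and 14.8 in asynchronous cells. Its partner Cpsf4, a subunit of the cleavage and polyadenylation factor, had 1.04 in mitotic cells, then 28.5 in early and 20.02 in late G1, and 20.9 in asynchronous cells. The other 3 paired genes without a 2-fold rise, also named after the fact, were Paf1, Usp29 and 1700028J19Rik. Paf1, of the elongation complex of that name, had 11.6 in mitotic cells, then 22 in early and 16.2 in late G1, and 54.7 in asynchronous cells, and its partner Med29, a Mediator subunit, 0.892, 23.9, 13.8 and 23.5 in the same order. Usp29, the imprinted partner of Peg3, was low in each column, with 0.423 in mitotic cells, then 0.279 in early and 0.455 in late G1, and 1.43 in asynchronous cells. Among the better expressed pairs, the highest joint rise was in Alg2 (5.57) and Sec61b (5.39), a glycosylation enzyme of the endoplasmic reticulum and a subunit of its protein channel. The lowest was in C2 (2.93) and Ehmt2 (3.50), a complement component and a histone H3 lysine methyltransferase.

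From early to late G1 fewer paired genes than others were higher. Of 1580 paired genes, 82 (5.19%, exact 95% binomial interval 4.15 to 6.40%) were higher in late G1, where 15.1% of all genes and 16.3% of the genes outside pairs were. In the other direction 154 (9.75%) were lower, where 7.52% of all genes were. Equal medians gave 104 of the 1580 paired genes higher, where 17.4% of all genes were, and 90 lower, where 5.19% were. The intervals count genes and do not cover error between libraries. The median log2 ratio was -0.31 for paired genes and -0.08 for all genes. Paired genes also had a higher mean level, whose part in this difference was not tested. In the upper part of the table, from the median level on, 3.41% of paired genes and 6.25% of others were higher, 10.03% and 8.06% were lower, and the median ratios were -0.37 and -0.26.

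Against asynchronous cells, 300 of 1585 paired genes (18.9%) were higher in early G1, where 17.7% of all genes were, and 62 (3.91%) were lower, where 9.53% of all genes and 10.2% of unpaired genes were. With the columns set to equal medians, 125 of the 1585 were higher, where 8.71% of all genes were, and 115 lower, where 14.9% were. In late G1, 164 of 1581 (10.4%) were higher, where 16.9% of all genes were, and 54 (3.42%) were lower, where 5.14% were. Equal medians gave 101 of the 1581 higher, where 12.9% of all genes were, and 97 lower, where 7.91% were. The low share of paired genes that were lower in early G1 was also seen at or above the median level, at 3.31% against 5.53% of unpaired genes. There the share of genes higher in early G1 was 17.8% and 18.5%. Equal medians lower the median log2 ratio of all genes by 0.32 for early G1 and by 0.20 for late G1 against asynchronous cells, and raise that of late against early G1 by 0.12 and that of mitotic against asynchronous cells by 3.94.

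**Figure D2:**
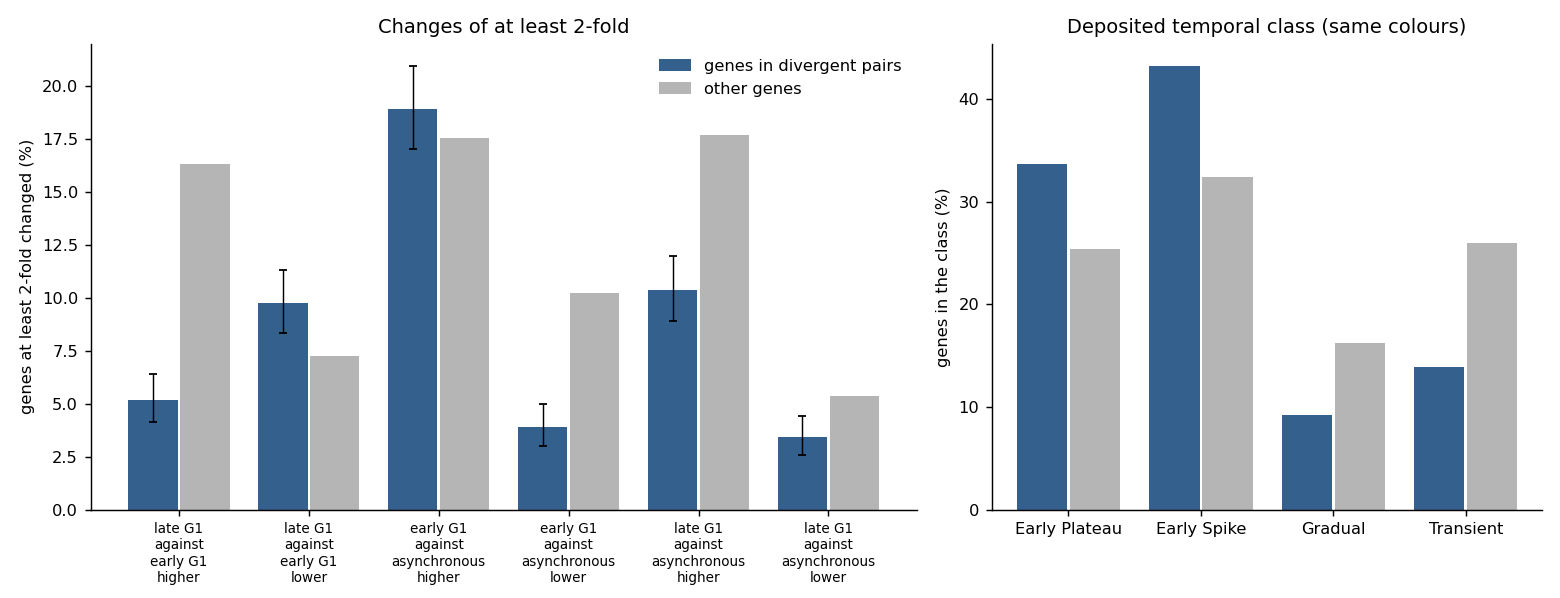
Left, percent of genes with a change of 2-fold or more, up or down (vertical axis), in 3 comparisons among the released and asynchronous columns, for genes of divergent pairs (blue, with exact 95% binomial intervals) and other genes (grey). Right, percent of the same genes in each temporal class that the authors deposited. Fewer paired genes were higher in late G1 than in early G1 (5.19% against 16.3%), and fewer were Transient (13.9% against 25.9%).

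The authors gave each gene 1 of 4 temporal classes. Of the paired genes, 43.2% were Early_Spike and 33.7% Early_Plateau, against 32.4% and 25.4% of the other genes. Transient genes made up 13.9% against 25.9%, and Gradual genes 9.19% against 16.2%. The class and the 4 columns come from the same data. Partners had the same class in 339 of 794 pairs (42.7%, exact 95% binomial interval 39.2 to 46.2%). When each minus-strand gene was combined with every plus-strand gene other than its partner, 32.8% of combinations had the same class. The excess was also present in the rarer classes. Both partners were Gradual in 18 pairs (2.27%, against 0.843% of the other combinations) and Transient in 37 (4.66% against 1.93%). Both were Early_Spike in 180 pairs and Early_Plateau in 104, and 209 pairs joined these 2 classes.

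Partners resembled each other in level, but loosely. In asynchronous cells their levels, as log2 of (signal + 0.1), were within 2-fold of each other in 49.0% of 792 pairs, against 37.7% of the other combinations of the same genes, 39.0% of 580 divergent neighbours whose starts lay 1 to 10 kb apart, and 31.9% of all gene pairs on 1 chromosome. The corresponding shares for partners, other combinations and divergent neighbours were 53.8%, 43.6% and 47.2% in mitosis, 46.7%, 37.5% and 32.8% in early G1, and 50.1%, 40.4% and 41.3% in late G1. Spearman's rho between the partners' levels ran from 0.33 in late G1 to 0.36 in mitosis and in asynchronous cells. These are correlations across genes, which share libraries and scaling and are not independent replicates. Where both partners were at or above the median level, 61.7% were within 2-fold in asynchronous cells, against 52.4% of such other combinations.

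**Figure D3:**
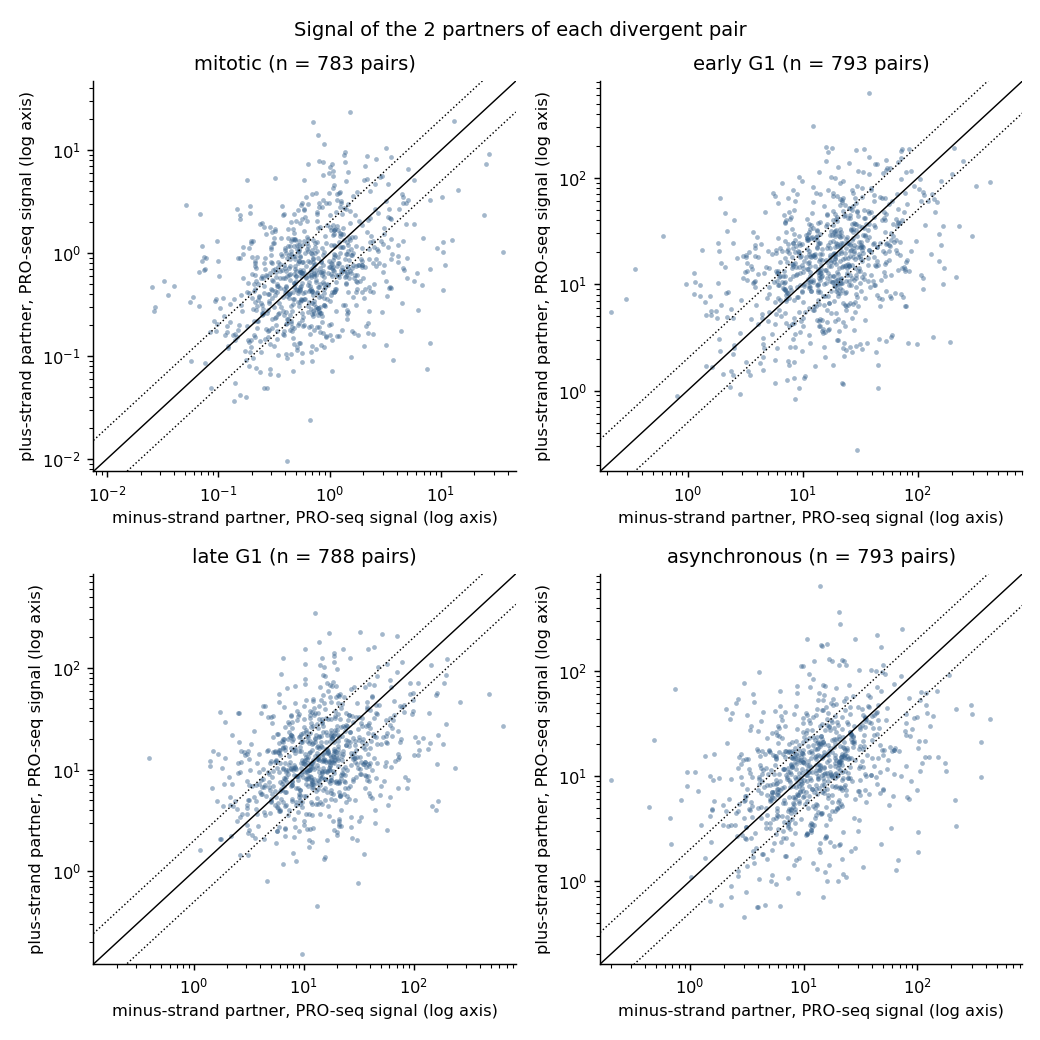
Signal of the minus-strand partner (horizontal axis) against that of the plus-strand partner (vertical axis) in the 4 columns, both on log axes, 1 point per pair with both partners above 0. The solid line marks equal signal and the dotted lines a 2-fold difference. The points spread widely around the line, with 45.3% of pairs under 2-fold apart in mitosis and 48.7% in asynchronous cells when nothing is added to the signal.

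Partners also changed alike a little more often than other combinations. Their log2 ratios lay within 1.5-fold of each other in 56.7% of pairs for mitotic against asynchronous cells (other combinations 51.0%), 54.2% for early G1 against mitosis (50.5%), 54.7% for late G1 against early G1 (49.7%), 53.2% for early G1 against asynchronous cells (46.0%) and 54.6% for late G1 against asynchronous cells (50%). A difference between partners in a log2 ratio is almost free of the scaling of the columns. Spearman's rho was between 0.21 and 0.27 in these 5 comparisons, which share columns. Divergent neighbours 1 to 10 kb apart were within 1.5-fold in 42.5% to 47.7%. Convergent neighbours with starts within 1 kb were so in 54.6% to 59.8%, so this likeness of change was not particular to divergent partners.

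**Figure D4:**
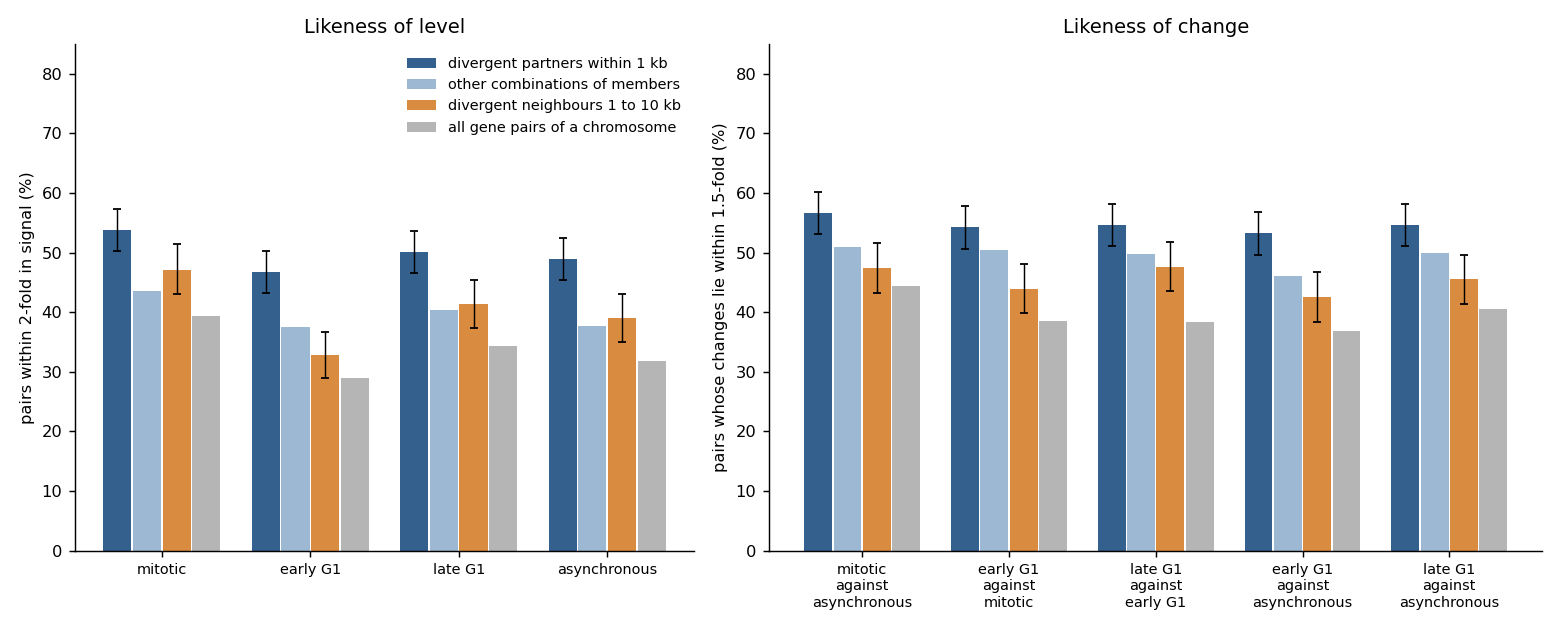
Percent of pairs within 2-fold in signal in each column (left) and percent whose log2 ratios lie within 1.5-fold of each other in each comparison (right). Bars stand for divergent partners within 1 kb, other combinations of the same genes, divergent neighbours 1 to 10 kb apart and all gene pairs of a chromosome, with exact 95% binomial intervals where pairs were counted singly. Divergent partners have the tallest bar in each set. Neighbours in other orientations with starts within 1 kb are not drawn. Of these, tandem neighbours, on the same strand, were higher than divergent partners in each set. They stood at 67.9 to 76.4% for levels and 75.8 to 79.1% for changes.

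Likeness did not follow distance in the same direction in every measure. In asynchronous cells rho between levels was 0.32 for the 216 pairs within 100 bp, 0.42 for 333 pairs over 100 and up to 300 bp apart and 0.31 for 243 pairs farther apart. For late G1 against asynchronous cells the share of pairs with changes within 1.5-fold was 61.2%, 53.8% and 50% in that order, and for mitotic against asynchronous cells it was 55.2%, 53.8% and 62.1%. Partners shared a temporal class in 46.8%, 42.1% and 39.9%. Changes in early G1 against asynchronous cells were within 1.5-fold in 58.8%, 53.3% and 48.1%. The intervals of neighbouring distance classes overlapped for each of these shares, and no interval was computed for rho. Just inside the 1 kb limit lay Haghl and Ccdc78 (998 bp), with asynchronous signals of 53.8 and 44.7, 5330417C22Rik and 1700013F07Rik (998 bp), with 0.682 and 2.25, and Frg2f1 and Foxj3 (993 bp), with 8.38 and 9.71. Just outside lay Dnase1l1 and Taz (1014 bp), with 44.1 and 4.42, Acsbg2 and 1700061G19Rik (1030 bp), with 14.5 and 42.6, and Aamp and Pnkd (1039 bp), with 21.3 and 50.3.

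The RefSeq spans of the partners overlapped in 247 of the 755 pairs with a span for both genes. The use of strand in counting is not given in the sources used, and whether reads of one partner were counted for the other was not tested. Without those pairs, changes were within 1.5-fold in 52.8% to 56.5% of pairs in the 5 comparisons, and rho ran from 0.18 to 0.28. With overlap the shares were 55.3% to 60.2% and rho 0.26 to 0.32.

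The stronger partner of a pair had a median of 2.06 times the signal of the weaker in asynchronous cells and between 2.01 and 2.19 times in the other columns. In asynchronous cells 60 of 792 pairs differed by over 10-fold. The minus-strand partner was the stronger in 51.9% to 53.9% of pairs. The same partner was the stronger in all 4 columns in 560 of 778 pairs (72.0%). That share was 39.0% for pairs under 1.5-fold apart in asynchronous cells, 80.8% at 1.5- to 4-fold and 97.6% at 4-fold or more. The partner with the shorter RefSeq span tended to have the higher signal, with a rho of -0.42 over 754 pairs between the log2 ratio of signals and that of spans. Division of the values by gene length is not stated in the sources used.

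The likeness of changes was also read by the gap in level between partners. The gap comes from the same columns as the ratios, so gap and change are not independent measures. For mitotic against asynchronous cells the changes were within 1.5-fold in 60.8% of pairs under 1.5-fold apart in level, 63.4% at 1.5- to 4-fold and 35.9% at 4-fold or more, where rho was -0.04. For late G1 against early G1 the shares were 57.7%, 54.3% and 51.5%, with overlapping intervals.

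Pairs in which both partners changed by 2-fold the same way were few but outnumbered those in which they changed in opposite ways. Between early and late G1, both were higher in 9 of 786 pairs (1.15%) and both lower in 13 (1.65%), against 0.265% and 0.921% of the other combinations. Opposite changes were found in 2 pairs (0.254%, against 1.03%), and in 576 pairs neither partner changed. For early G1 against asynchronous cells both were higher in 39 of 791 pairs (4.93% against 3.59%), both lower in 8 (1.011% against 0.153%) and opposite in 2 (0.253% against 1.49%). For late G1 against asynchronous cells the numbers were 19 (2.41% against 1.08%), 5 (0.635% against 0.109%) and 4 (0.508% against 0.702%) of 787.

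Several pairs joined genes of related function. Hspd1 and Hspe1 encode the mitochondrial chaperonin HSP60 and its co-chaperonin HSP10. Hspd1 had 5.04 in mitotic cells, then 114 in early and 98.6 in late G1, and 119 in asynchronous cells, and Hspe1 3.25, 69, 48.7 and 47.6 in the same order. The chaperonin was the stronger in each column, and neither gene changed 2-fold between the released and asynchronous columns. Ppat and Paics encode enzymes of purine synthesis. Ppat measured 0.825 in mitotic cells, then 36.8 in early and 17.8 in late G1, and 17.5 in asynchronous cells, and Paics 1.78, 48.7, 24.3 and 34.2 in the same order. Both were highest in early G1 and both were lower by late G1, with log2 ratios of -1.04 and -1.002. Another purine enzyme, Gart, had 1.26 in mitotic cells, then 41.4 in early and 30.2 in late G1, and 37.1 in asynchronous cells beside the splicing cofactor gene Son, which had 3.08 in mitotic cells, then 69.5 in early and 45.7 in late G1, and 59.6 in asynchronous cells, and neither changed 2-fold after early G1. Orc3, a subunit of the origin recognition complex, stood at 1.10 in mitotic cells, then 32.4 in early and 15.2 in late G1, and 13.5 in asynchronous cells, with its partner Rars2, a mitochondrial arginyl-tRNA synthetase, at 1.20 in mitotic cells, then 23.3 in early and 14.8 in late G1, and 15.9 in asynchronous cells. Orc3 was 2-fold lower in late than in early G1 (-1.09) and Rars2 was not (-0.65).

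Hist1h2ac and Hist1h2bc, the only pair of replication-dependent histone genes, peaked in early G1. Hist1h2ac had 8.04 in mitotic cells, then 207 in early and 97.7 in late G1, and 98.8 in asynchronous cells, and Hist1h2bc 3.26, 191, 37.5 and 36.3 in the same order. Both were 2-fold higher in early G1 than in asynchronous cells and 2-fold lower again by late G1, while equal medians kept 1 of the 2 past 2-fold in each comparison. Tepsin, an adaptor-associated trafficking protein, and Ndufaf8, an assembly factor of respiratory complex I, had the highest joint excess in early G1 over asynchronous cells among the better expressed pairs. Tepsin had 0.569 in mitotic cells, then 33.6 in early and 4.38 in late G1, and 8.60 in asynchronous cells, and Ndufaf8 3.05, 113, 42.3 and 16.3 in the same order. Both were lower by 2-fold or more in late G1 than in early G1 (-2.91 and -1.42). Tepsin was then under its asynchronous level and Ndufaf8 above its own. Tradd, an adaptor of TNF receptor signalling, fell from early to late G1 with its partner Fbxl8, an F-box protein. Tradd had 2.66 in mitotic cells, then 116 in early and 36.4 in late G1, and 26.3 in asynchronous cells, and Fbxl8 1.09, 35.8, 8.65 and 24.9 in the same order. The 13 pairs that fell together also held Ftsj3 and Psmc5, a ribosomal RNA methyltransferase and a proteasome ATPase, with log2 ratios of -1.05 and -1.18.

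The basement membrane collagen genes Col4a1 and Col4a2 rose together between early and late G1. Col4a1 had 0.142 in mitotic cells, then 2.04 in early and 5.43 in late G1, and 1.36 in asynchronous cells, and Col4a2 0.165, 1.43, 4.51 and 1.66 in the same order. Both were highest in late G1 and near each other in each column, at a low level, Col4a2 being the higher in mitotic and asynchronous cells and Col4a1 in both G1 columns, with log2 ratios of 1.37 and 1.59 over early G1. Of the 8 fibroblast markers, 6 had more signal in late than in early G1, and 5 of these at least 2-fold more. Col1a1 went from 1.97 to 9.37, Pdgfra from 2.48 to 6.42, Snai2 from 1.02 to 5.64, Pdgfrb from 1.78 to 4.6, Thy1 from 1.18 to 2.5 and Twist1 from 5.91 to 7.90. Fn1 went from 106 to 61.3 and Vim from 14.8 to 9.79. All 8 summed to 135 in early G1 and 108 in late G1, and without Fn1 to 29.1 and 46.2. By count, 6 of the 8 markers moved the same way as the collagen pair, while Fn1, Vim and the sum of all 8 fell. The part of feeder cells in the signal of the collagen pair was not tested. Rpgrip1l, a ciliary gene, and Fto, an RNA demethylase, chosen after their values were seen, had log2 ratios of 1.41 and 1.53 in the same comparison. Noa1 and Polr2b, a mitochondrial GTPase and the second largest subunit of RNA polymerase II, were the better expressed pair highest together in late G1 against asynchronous cells. Noa1 had 0.449 in mitotic cells, then 26 in early and 17.3 in late G1, and 7.45 in asynchronous cells, and Polr2b 2, 52.3, 67.4 and 17.4 in the same order. Early G1 was the peak of the first and late G1 that of the second.

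**Figure D5:**
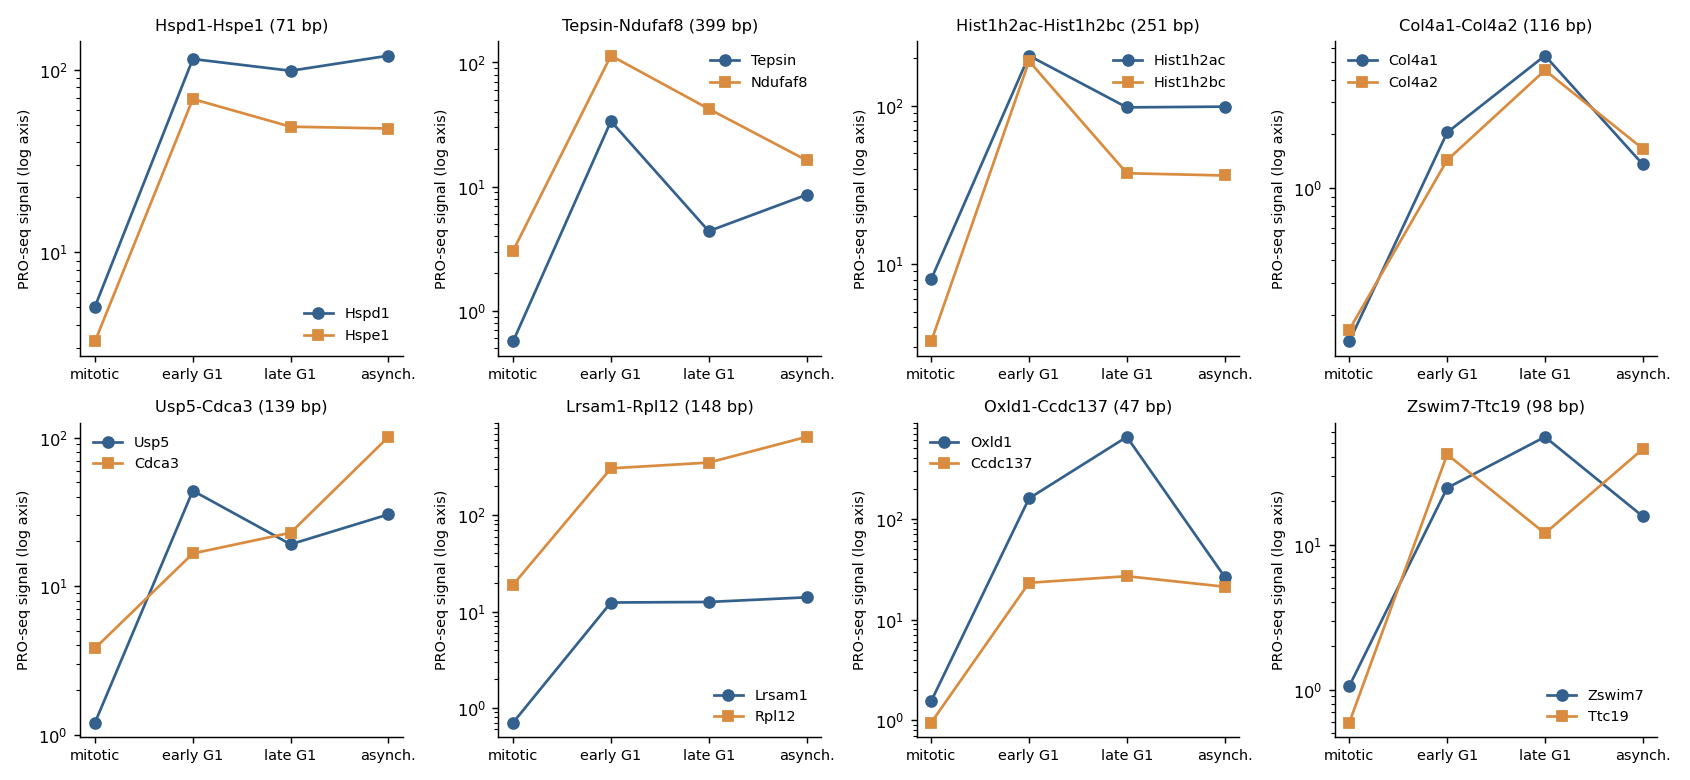
Signal (vertical axis, log scale) of both partners of 8 divergent pairs in the mitotic, early G1, late G1 and asynchronous columns (horizontal axis), 1 value per column with no error bar. The partners keep their order in Hspd1-Hspe1, stay far apart in Lrsam1-Rpl12, cross by a small margin in Col4a1-Col4a2, and cross in Usp5-Cdca3 and Zswim7-Ttc19.

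Genes of G2 and mitosis differed from their partners. Of the 7 in pairs, 4 were 2-fold lower in early G1 than in asynchronous cells (9.53% of all genes) and none of the 7 partners was. The median log2 ratios were -1.20 and 0.40 (0.30 over all genes), and in late G1 they were -1.50 and -0.05 (0.21 over all genes). Equal medians gave -1.52 and 0.07 in early G1, with 4 of the 7 genes and none of the partners lower. The 50 mitotic genes outside pairs had medians of -0.73 and -1.09. Cdca3, a trigger of mitotic entry, had 3.82 in mitotic cells, then 16.6 in early and 22.9 in late G1, and 101 in asynchronous cells. Its partner Usp5, a deubiquitinase, had 1.21 in mitotic cells, then 43.9 in early and 19.1 in late G1, and 30.4 in asynchronous cells, so the order of the partners turned between asynchronous cells and early G1. Aurka, the mitotic Aurora A kinase, had 1.71 in mitotic cells, then 21.2 in early and 13.6 in late G1, and 48.7 in asynchronous cells, and its partner Cstf1, a polyadenylation factor, 1.43, 23.5, 21.2 and 17.8 in the same order. Hmmr, a spindle-associated protein, had 0.979 in mitotic cells, then 7.41 in early and 6.20 in late G1, and 17.7 in asynchronous cells. Its partner Nudcd2 had 5.98 in mitotic cells, then 64.2 in early and 87.6 in late G1, and 32.3 in asynchronous cells, and was 2-fold higher in late G1 than in asynchronous cells while Hmmr was 2-fold lower. Cdca2, which targets protein phosphatase 1 to chromatin, was also lower in early G1 (-1.64), and its partner Kctd9 was at 0.33. Ncapd2, the condensin subunit of the interval above, measured 1.34 in mitotic cells, then 21 in early and 17.3 in late G1, and 32.9 in asynchronous cells, and Mrpl51, of the mitochondrial ribosome, 9.06, 90.3, 52.1 and 43.5 in the same order.

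Some cell cycle genes did fall with their partner. Cdca5, which encodes sororin, a protector of sister chromatid cohesion, had 2.37 in mitotic cells, then 26.9 in early and 27 in late G1, and 57.8 in asynchronous cells, and the Golgi protein gene Zfpl1 0.382, 11.8, 15 and 26.9 in the same order. Both were 2-fold lower in early G1 than in asynchronous cells (-1.10 and -1.19), and in late G1 Cdca5 was (-1.09) and Zfpl1 was not (-0.84). Prr11 and Ska2, a cell cycle gene and a kinetochore subunit, were 1 of the 5 pairs lower together in late G1 (-2.77 and -1.11). The other 4 were BC005624-Usp20, Prr3-Gnl1, Miip-Fv1 and C2-Ehmt2, named after their values were seen.

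The pairs with opposite changes were also named afterwards. Between early and late G1 they were Zswim7-Ttc19 and Fbxo44-Fbxo2. Zswim7, of a homologous recombination complex, had 1.06 in mitotic cells, then 24.6 in early and 55.4 in late G1, and 15.7 in asynchronous cells, and Ttc19, an assembly factor of respiratory complex III, 0.593, 42, 12 and 45.7 in the same order. Late G1 was the highest column of the first and, after mitosis, the lowest of the second. Fbxo44 and Fbxo2 both encode F-box proteins. Fbxo44 had 0.0744 in mitotic cells, then 9.27 in early and 3.54 in late G1, and 5.53 in asynchronous cells, and Fbxo2 0.683, 5.43, 24.2 and 6.24 in the same order. Ddx25-Pus3 and Acd-Pard6a differed in sign in early G1 against asynchronous cells. Acd, which encodes the shelterin subunit TPP1, had 0.594 in mitotic cells, then 39.6 in early and 19.9 in late G1, and 14.7 in asynchronous cells, and the polarity gene Pard6a 5.09, 76.8, 98.2 and 172 in the same order. In late G1 against asynchronous cells the 4 were Ddx25-Pus3, Hmmr-Nudcd2, Zswim7-Ttc19 and Srgap2-Fam72a. Oxld1 and Ccdc137 were the most unlike of the better expressed pairs in that comparison. Oxld1 had 1.55 in mitotic cells, then 159.6 in early and 651 in late G1, and 26.6 in asynchronous cells, and Ccdc137 0.951, 23.2, 27 and 21.2 in the same order, so that 47 bp separate the start of a gene at its peak in late G1 from that of one within 2-fold of its asynchronous level in both released columns.

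Some cytosolic ribosomal protein genes had much weaker partners. Rpl12 had 19 in mitotic cells, then 306 in early and 351 in late G1, and 648 in asynchronous cells, and its partner Lrsam1, a ubiquitin ligase, 0.706, 12.4, 12.6 and 14 in the same order. Rpl7a had 14.2 in mitotic cells, then 193 in early and 223 in late G1, and 367 in asynchronous cells, beside the Mediator subunit gene Med22 with 0.794 in mitotic cells, then 18 in early and 17 in late G1, and 20.4 in asynchronous cells. Rpl9 had 8 in mitotic cells, then 170.5 in early and 164 in late G1, and 179 in asynchronous cells, and Lias, the lipoic acid synthase, 0.696, 14.3, 11.4 and 11.2 in the same order. The ribosomal gene was over 10-fold the stronger in these 3 pairs in asynchronous cells. Of the 13 ribosomal protein genes in pairs, 1 was 2-fold lower in early G1 than in asynchronous cells (9.53% of all genes), Rpl12 (-1.08). None of the 13 changed 2-fold in late G1 against asynchronous cells, where 16.9% of all genes were higher and 5.14% lower. Equal medians made 4 of the 13 lower in early G1 and 2 in late G1. The list's median log2 ratio in late G1 against asynchronous cells was -0.59, its partners' 0.08, and that of the 68 ribosomal genes outside pairs -0.53. The median over all genes was 0.21.

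Other groups are given by their counts, which are small. Of 26 mitochondrial ribosomal protein genes, none changed 2-fold from early to late G1, where 15.1% of all genes were higher and 7.52% lower, and 3 of their 26 partners were lower. Of 26 oxidative phosphorylation genes, 7 were higher in early G1 than in asynchronous cells, where 17.7% of all genes were, and none lower, with 6 and 1 among their partners. Equal medians gave 2 higher and 1 lower on that list, so its count rests on the scaling. Atp5j, of the ATP synthase, had 2.24 in mitotic cells, then 70.8 in early and 45 in late G1, and 25.9 in asynchronous cells. Its partner Gabpa, an ETS-family transcription factor, had 1.09 in mitotic cells, then 37.5 in early and 20.8 in late G1, and 22.4 in asynchronous cells. Sdhd, of respiratory complex II, and the mitochondrial import gene Timm8b had log2 ratios of 1.23 and 0.56 in that comparison. Over all genes that comparison had 17.7% higher and 9.53% lower, or 8.71% and 14.9% with equal medians. The counts of the lists below in early G1 against asynchronous cells are to be read beside these shares. Of 35 DNA repair genes, 3 were higher and none lower, with 8 and none among their partners. Of 19 DNA replication genes 2 were higher and none lower. Equal medians gave 1 higher and 3 lower of the repair genes and 1 and 1 of the replication genes. From early to late G1, 3 of the 19 replication genes were lower (7.52% of all genes) and none higher (15.1%), with 3 and 1 among their partners. Equal medians left 1 of the 19 lower. Among 18 chaperone genes 3 were higher in early G1 than in asynchronous cells and none lower, or 1 and 1 with equal medians. In the same comparison 2 of 9 RNA polymerase genes, 2 of 10 aminoacyl-tRNA synthetase genes, 4 of 24 splicing genes, 1 of 5 tubulin genes and 2 of 8 proteasome genes were higher and none of these lower. Equal medians left 2 polymerase and 2 splicing genes higher and none of the other 3 lists. Zinc finger genes had 5 of 20 higher and 3 lower, or 3 and 4 with equal medians. Of 8 genes on the p53 list, 3 were higher in early G1 than in asynchronous cells under either scaling, Wrap53 (1.79) among them. With equal medians 1 was lower. Trp53 and Wrap53 are both on that list, which therefore holds more than p53 targets. Trp53, the tumour suppressor itself, had 7.39 in mitotic cells, then 143 in early and 121 in late G1, and 89.5 in asynchronous cells, and Wrap53, the telomerase cofactor gene on the other strand, 25.5, 249, 201 and 72 in the same order. Apaf1, the apoptosome scaffold, had 0.879 in mitotic cells, then 34.8 in early and 28.1 in late G1, and 6.61 in asynchronous cells and its partner Ikbip 0.525 in mitotic cells, then 4.64 in early and 7.71 in late G1, and 2.57 in asynchronous cells.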

How the data were processed

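PRO-seq libraries of mouse induced pluripotent stem cells were processed by the authors on GRCm38 (mm10). The tools, per the submitters' processing notes and without version or order, were Bowtie2, cutadapt, SAMtools and Picard. The authors deposited a normalized signal per gene, 1 column for each of 4 groups, per the file headers. How libraries were combined and scaled, whether values were divided by gene length and whether strand was used is not stated in those sources. The deposited temporal class is a text label of another kind, whose making is not given either. Depth is unknown.

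Pairs were found from the strand and start site of each gene in the table. Levels and ratios were taken as log2 of (signal + 0.1) for genes with a mean signal of at least 0.5. A gene listed at 0 was left out of ratios that use that column, and a call needed 2-fold. The planned tests across libraries could not be run on 1 column per group, so only descriptions are given. Partners were set beside neighbouring genes by orientation and distance, every other minus-strand and plus-strand combination of paired genes, and every gene pair of a chromosome, all counted in full. Intervals are exact binomial (95%) over pairs or genes. Pair finding and likeness were tested on simulated data.

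The pairs, gene lists and motifs were chosen with earlier results of these data known. Named were, among pairs with both genes at or above the median mean signal and no predicted, Rik or clone name, the 3 highest, the 3 lowest and the 3 most unlike in each of 5 comparisons, the 4 with the most asynchronous signal, the 3 most equal and 3 most unequal, well-known pairs that met the rule and up to 4 for each gene list. RefSeq sequences and spans are of GRCm38.p6. Of 1588 genes, 1557 matched by symbol, 22 by synonym and 9 not at all. Python 3.11.15, pandas 2.3.3, numpy 2.4.6, scipy 1.17.1 and matplotlib 3.10.9 were used.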

Additional observations from a re-analysis of the deposited data

How the results depend on the processing

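No paired analysis was possible because the table holds 1 combined column per group, so the replicate block and leaving out each library were not run. The authors' scaling sets direction in part. Equal medians turned the balance of paired genes called higher and lower from 0 and 1571 to 112 and 68 in mitotic against asynchronous cells, from 1572 and 1 to 76 and 114 in early G1 against mitosis, and from 82 and 154 to 104 and 90 in late against early G1. In results added after seeing the data, equal medians gave paired medians of 0.0457 and 0.0835 in the first 2 and -0.0845 in late G1 against asynchronous cells. They reversed the mitotic against asynchronous log2 ratios of Hspb2 (1.46), Cryab (1.38) and Slc25a29 (1.02) and the early G1 against mitosis ratios of C2 (-1.62) and Ehmt2 (-0.98). Of the genes in named pairs with a 2-fold ratio, 100 of 192 and 76 of 193 changed sign in these comparisons and 0 in the other 3. Of 393 recomputed shares, counts and medians, 326 stayed close. For level in mitosis the share of partners within 2-fold was 46.5% with 0.02 added and 73.0% with 0.5, which also gave 51.7% for change in mitotic against asynchronous cells. A mean signal of at least 2.5 gave 51.2% (level, early G1), 53.6% (level, asynchronous) and 58.1% (change, early G1 against mitosis). The 1 paired gene lower in early G1 than in mitosis gave 0 with 0.5 added, at 3-fold, and at or above the median level. Keeping zeros made 0.0630% higher in mitosis than in asynchronous cells.

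With equal medians, the shares of paired genes higher, pairs both higher, genes lower and pairs both lower were 7.11, 1.02, 4.32 and 0.256% in mitotic against asynchronous cells, 4.82, 0.512, 7.23 and 1.15% in early G1 against mitosis, 7.89, 1.64, 7.26 and 1.90% in early G1 against asynchronous cells and 6.39, 1.27, 6.14 and 1.27% in late G1 against asynchronous cells, and the last 2 shares were 5.70 and 0.891% in late against early G1. A 1.5-fold threshold gave 10.8, 2.67, 31.9 and 12.8% in late against early G1. It gave 42.3, 22.1, 8.58 and 2.40% in early G1 against asynchronous cells. For late G1 against asynchronous cells it gave 22.9, 8.13, 10.1 and 2.16%. A 3-fold threshold gave 1.46, 0.254, 1.46 and 0.254%, 3.91, 0.759, 1.20 and 0.126%, and 3.16, 0.254, 1.08 and 0.127% in that order. Shares over all genes and over other combinations were not computed at 1.5-fold or 3-fold. The values at these thresholds therefore show only the dependence on the threshold. Restriction to genes from the median level upward, chosen after seeing the data, gave 58.3, 61.1, 58.6 and 61.7% for the levels, 60.7, 61.6 and 59.8% for the changes in mitotic against asynchronous cells, early G1 against mitosis and late against early G1, 3.41% of genes and 0.595% of pairs higher in late than in early G1, 0.593% of pairs lower in early G1 and 1.19% higher in late G1 against asynchronous cells, and 65.5% for the order of partners. The lowest rho over these settings was 0.225 for levels (late G1) and 0.199 for changes (early G1 against asynchronous cells). Subsets of pairs by distance class, span overlap or gap in level were not among these settings. Some had a lower rho for changes, such as 0.176 for early G1 against mitosis in pairs without overlapping spans. Causes other than the settings themselves were not tested.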

Other observations

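Neighbouring genes in other orientations were counted in the same way. Tandem neighbours, on the same strand with starts within 1 kb, were more alike than divergent partners: 67.9% of 159 were within 2-fold in asynchronous signal, 79.1% of 158 had late G1 against early G1 changes within 1.5-fold, and 64.8% shared a temporal class. Spearman's rank correlation between their levels ran from 0.69 to 0.74. Of 174 convergent neighbours with starts within 1 kb, 42.0% shared a temporal class, against 42.7% of divergent partners. In asynchronous signal 40.2% of them were within 2-fold, against 49.0% of divergent partners. Tandem neighbours within 100 kb whose RefSeq spans overlapped shared a class in 47.8% of 157, and those without overlap in 33.0% of 4415. Convergent neighbours with starts 10 to 100 kb apart also resembled each other in late G1 against early G1, with 58.4% of 2144 within 1.5-fold and rho 0.44, and 44.9% of 2179 shared a class. Where the spans of convergent neighbours within 100 kb overlapped, 67.7% of 711 were within 1.5-fold in that comparison, against 54.4% of 1660 without overlap.

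A span of another gene in the table overlapped that of 43.8% of paired genes and of 16.3% of other genes. Partners kept a constant ratio within 1% over the 4 columns in 0 of 794 pairs.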
